A study of Mus musculus with 64 samples.

Results

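SWI/SNF complexes are ATP-driven machines that slide or evict nucleosomes, and their subunit genes are known tumour suppressor genes in several cancers, lymphomas among them. A complex of the BAF or PBAF class holds 1 ATPase, Smarca2 (BRM) or Smarca4 (BRG1), and a core built around Smarcb1, Smarcc1 and Smarcc2. An ARID subunit defines which of these classes it belongs to. Arid1a and Arid1b are the alternative ARID subunits of the BAF complex, and Arid2 belongs to the PBAF complex. A transposon that carries splice acceptors and polyadenylation sites in both directions can truncate a transcript from either strand of an intron.

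These 8 genes were taken as a group out of 24963 RefSeq genes on the autosomes, by their names in the gene annotation of the insertion table, and for Arid1b by the coordinates of its gene, chr17:4995074-5347656 (mm10). All of them lay on chromosomes that were kept, and 337 lines of the table named one of them. Of these, 3 lines had no target motif within 5 bp, which left 334 insertions at 319 positions, or 0.111% of the 299625 insertions of the series. Each of the 334 lay inside the RefSeq span of its gene. The genes were chosen by what is known of the complex and selected on the insertion counts, positions, strands and reads of these same samples, so all of these are given as a description, beside the share of all genes that each test called.

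Insertions came from 64 mice, 1 sample each, of mixed FVB, 129Sv and C57BL/6 ancestry, and every mouse belonged to an ITP line, whose transposons inactivate the genes they enter. Diffuse large B cell lymphomas came from 30 PB ITP mice (genotype IMPB) and 11 SB ITP mice (genotype IMSB), and tail tissue was the control, from 12 PB and 11 SB mice. The transposase was expressed from the Rosa26 locus throughout the body (Rosa26 PB or Rosa26 SB), so tails were mutagenised as well. The SB mice came from crosses in which both parents were Blm m3/m3, a hypomorphic allele of the Bloom helicase gene that raises recombination, and carried the ITP1-C or ITP2-M transposon array, with both triple and double transgenic animals bred. The Blm genotype of the PB mice is not given in the sources used here. Tumours and tails were whole tissue, so that an insertion cannot be assigned to a B cell or to another cell, and ages were not given. Libraries held between 757 and 10800 insertions in PB tumours, between 2035 and 7362 in PB tails, between 760 and 8786 in SB tumours and between 2537 and 7148 in SB tails. PB tumour 3 stood apart with 5721832 reads, against a median of 136579 in PB tumours.

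PiggyBac inserts at TTAA and Sleeping Beauty at TA, and these motifs are the only sequence that the insertions in the 8 genes had to share. The 30 bases around the insertion with the highest share of its sample's reads in each group are shown here, on the plus strand of GRCm38 with the motif in capitals. All 4 were in introns of Arid1b.
Arid1b intron 4, PB tumour 19, chr17:5150434-5150463: cttacattgatctTTAAtactattgacgtc
Arid1b intron 1, PB tail 5, chr17:5012453-5012482: taatgaagtccctTTAAgtggcctgtactc
Arid1b intron 2, SB tumour 7, chr17:5071947-5071976: catatatgtgcataTActtacatatatgtg
Arid1b intron 4, SB tail 3, chr17:5164645-5164674: ttgtgatattaacgTAattaatctatagtg

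The insertions that fell into coding sequence were 3 in number, and their sites are shown because a coding insertion needs no splicing to break the reading frame. They were in Arid1b exon 16, Arid2 exon 3 and Smarcc2 exon 2.
Arid1b exon 16, SB tumour 6, chr17:5332538-5332567: gcatgcaggacatgTAcaaccagagcccct
Arid2 exon 3, PB tumour 21, chr15:96289120-96289149: cgctgcctttgctTTAAaacagtattactt
Smarcc2 exon 2, SB tumour 4, chr10:128461342-128461371: ccttcccaagtacaTAcaagcagaaccgcc

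Beyond the motif, the sequence was compared with the 5339 TTAA and 53695 TA sites that the 8 genes contain. The TTAA was flanked as TTTAAA at 55 of the 187 insertions in PB tumours (29.4%) and at 10 of 49 in PB tails (20.4%), against 18.2% of all TTAA sites of the genes. For comparison, 20.4% of all insertions in PB tumours and 23.3% in PB tails had these letters. Around TA, the palindrome TATATA was found at 3 of 39 insertions in SB tumours (7.69%) and 2 of 59 in SB tails (3.39%), against 1.11% of the TA sites of the genes. Over all insertions it was found at 7.93% in SB tumours and 10.8% in SB tails. Both motifs read the same on the 2 strands.

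Insertions in the 8 genes were found in nearly every animal. At least 1 was present in 29 of 30 PB tumours, 12 of 12 PB tails, 10 of 11 SB tumours and 11 of 11 SB tails, and the samples without one were PB tumour 13, which held 757 insertions in all, and SB tumour 10, which held 3750. PB tumours held 187 insertions in the group (0 to 13 per tumour, median 6), PB tails 49 (2 to 7, median 3.5), SB tumours 39 (0 to 11, median 3) and SB tails 59 (3 to 11, median 5). Tumour sites differed between samples. Of the 39 in SB tumours, 23 were in the 3 spleen samples (SB tumours 3, 5 and 6), whose libraries held 4466, 6062 and 4750 insertions. In PB tumours, 41 of the 187 were in 6 spleen samples. The part of the tumour site was not tested. Per 1000 insertions of the sample, the mean was 1.24 ± 0.60 in PB tumours (SD, n = 30), 1.10 ± 0.46 in PB tails (SD, n = 12), 1.06 ± 1.09 in SB tumours (SD, n = 11) and 1.16 ± 0.34 in SB tails (SD, n = 11). The ranges of tumours and tails overlapped in both systems. Single samples often had several of the genes hit: 4 or 5 of the 8 in 11 of 30 PB tumours and in 3 of 11 SB tumours, and 4 of the 8 in 2 of 12 PB tails and 4 of 11 SB tails. Such samples are mixtures of many clones, so these insertions need not share a cell.

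**Figure D1:**
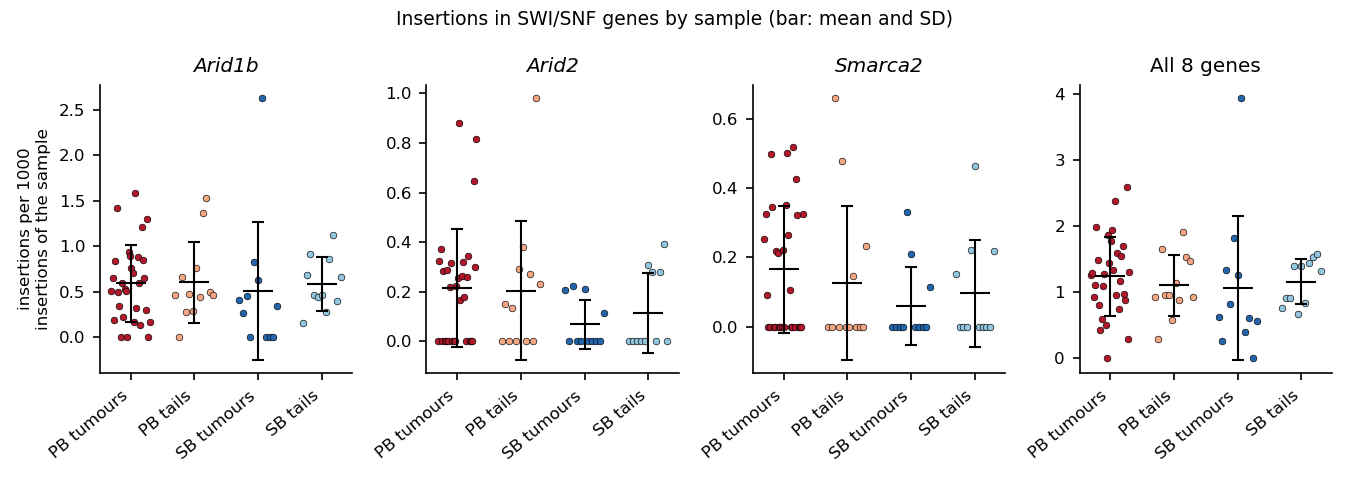
Insertions per 1000 insertions of each sample (vertical axes) in Arid1b, Arid2, Smarca2 and all 8 genes, by group, with 1 point per sample and the mean ± SD as bars. Tumours and tails overlap in every panel, and the highest Arid1b point, at 2.63, is SB tumour 7, with 2 insertions among 760.

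Among the ARID subunits, Arid1b carried most of the insertions, 158 of 334. It spans 352583 bp on chromosome 17 with 1820 TTAA and 18349 TA sites, more than any of the other 7 genes. PB tumours held 84 Arid1b insertions, in 27 of 30 tumours, with 0 to 8 per tumour and a median of 2. PB tails held 26 in 11 of 12 tails (0 to 6, median 2). In SB tumours there were 18 in 7 of 11 (0 to 5, median 2), and in SB tails 30, in 11 of 11 (1 to 8, median 3). The SB tumours without an Arid1b insertion (4, 8, 9 and 10) had a median of 2466 insertions, against 4750 in those with one. The PB tumours without one were 8, 13 and 29, with 6975, 757 and 3360 insertions. Per 1000 insertions, Arid1b had 0.59 ± 0.42 in PB tumours (SD, n = 30), 0.60 ± 0.44 in PB tails (SD, n = 12), 0.50 ± 0.76 in SB tumours (SD, n = 11) and 0.59 ± 0.29 in SB tails (SD, n = 11). Without SB tumour 7, the mean in SB tumours was 0.29 ± 0.29 (SD, n = 10). With SB tumour 7 included, the 4 means differed by less than the SD of any group. Without it, the SB tumour mean lay below the others by about as much as the SD of SB tumours or SB tails.

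Arid2 had 37 insertions in 18 of 30 PB tumours (0 to 5, median 1), 8 in 7 of 12 PB tails (0 to 2, median 1), 4 in 4 of 11 SB tumours and 6 in 4 of 11 SB tails. PB tumours 17 and 30 held 5 each. Arid1a was hit less often, with 10 insertions in 9 of 30 PB tumours, 6 in 4 of 12 PB tails, 6 in 5 of 11 SB tumours and 6 in 5 of 11 SB tails, and at most 3 in a sample. The medians per sample were 0 in each group for Arid1a and in both SB groups for Arid2, with hit and unhit samples in every group.

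Of the ATPases, Smarca2 had 28 insertions in 16 of 30 PB tumours (0 to 4, median 1), 5 in 4 of 12 PB tails, 4 in 3 of 11 SB tumours and 6 in 4 of 11 SB tails. Smarca4 had 11 insertions in 8 of 30 PB tumours (26.7%, 95% Clopper-Pearson interval 12.3 to 45.9%) and 0 in 12 PB tails (0 to 26.5%), and these intervals overlapped. A count of 0 over the 48124 insertions of PB tails allows up to 0.0623 per 1000, a floor of 3 insertions over the group. The pooled rate in PB tumours was 0.0701 per 1000, or 1.12-fold this floor. The 11 tumour insertions carry counting error as well, so no minimum fold follows from these values. In SB there was 1 Smarca4 insertion in 11 tumours and there were 3, in 3 samples, in 11 tails.

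Of the core subunits, Smarcc1 had 12 insertions in 8 of 30 PB tumours, 2 in 2 of 12 PB tails, 4 in 4 of 11 SB tumours and 6 in 4 of 11 SB tails. Smarcc2 had 3 in PB tumours, 0 in PB tails, 2 in SB tumours and 1 in SB tails. Smarcb1, with 95 TTAA sites the smallest target, had 2 in PB tumours, 2 in PB tails, 0 in SB tumours and 1 in SB tails. With 43813 insertions in SB tumours, a count of 0 allows up to 0.0685 per 1000, so a low rate of Smarcb1 insertions there was not detectable at this depth.

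Tumours were compared with tails by edgeR's quasi-likelihood test on insertions per sample, run over all genes with at least 10 insertions in the samples compared, to ask whether a gene gathered more insertions in lymphoma than in unselected tissue. In PB, 6 of the 8 genes passed the filter (Smarcb1 and Smarcc2 did not) and 0 were called after Benjamini-Hochberg adjustment, where 4.21% of all genes tested were called (142 of 3371). DESeq2 also called 0, and gave an adjusted p for 3 of the 6. At an unadjusted p under 0.05, edgeR had 1 of them, Smarca4 (p = 0.0153, adjusted p = 0.130), whose insertions lay in 8 of 30 tumours and 0 of 12 tails. Over all genes, 19.5% had an unadjusted p under 0.05 (656 of 3371). Smarca4 passed the filter of 10 insertions through its tumour count alone, so that it entered the test only because tumours were high, and DESeq2 gave it a log2 fold change of 0.76 with an unadjusted p of 0.534. The log2 fold changes of tumours over tails, as edgeR fitted them, were 0.41 ± 0.52 for Arid2, 0.64 ± 0.58 for Smarca2, 0.61 ± 0.66 for Smarcc1, -0.73 ± 0.57 for Arid1a and -0.02 ± 0.38 for Arid1b (± SE). For Arid1b the 95% interval ran from -0.77 to 0.72. Arid2, Smarca2, Smarcc1 and Arid1a had 8, 5, 2 and 6 insertions in tails, so they too passed the filter through their tumour counts. The median over the 6 genes was 0.51, with Smarca4 at 1.91 among them, and that over all genes tested 0.20. These medians are a description, since most of the 6 genes entered through their tumour counts.

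In SB, 5 of the 8 passed the filter (Arid1a, Arid1b, Arid2, Smarca2 and Smarcc1), 0 were called by edgeR or by DESeq2 after adjustment, where edgeR called 0.885% of all genes (10 of 1130). At an unadjusted p under 0.05, edgeR had 0 of the 5 and 9.12% of all genes (103 of 1130). Arid1b had a log2 fold change of -0.50 ± 0.50 (95% interval -1.48 to 0.48), Arid2 -0.29 ± 0.71, Smarca2 -0.30 ± 0.71, Smarcc1 -0.28 ± 0.71 and Arid1a 0.20 ± 0.73. The SB median over the 5 genes was -0.29, against 0.01 over all genes tested. Tested directly as an interaction of system and tissue over all 64 samples, the tumour to tail change differed between PB and SB in 0 of the 6 genes that passed the filter, with 1 at an unadjusted p under 0.05 (Smarca4, p = 0.0183, adjusted p = 0.501, against 9.38% of all genes), and in 0% of the 4370 genes tested by edgeR. DESeq2 called 0 of the 6 here as well. Of the 15 Smarca4 insertions, 11 were in PB tumours, so it passed the filter of the interaction test only through that group.

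The Arid1b comparison moved with a feature of the sample names. Some sample names join the animal's code into 1 word and others separate it, and what this marks is not stated. In PB tails, Arid1b had 0.37 ± 0.25 insertions per 1000 in the 5 with joined names and 0.76 ± 0.49 in the 7 with separated names (SD), while PB tumours had 0.60 ± 0.40 (n = 22) and 0.57 ± 0.50 (n = 8). The edgeR log2 fold change was 0.90 within joined names and -0.59 within separated names, with adjusted p of 0.4999 and 0.6404 by edgeR. All 11 SB tumours had joined names. SB tails had 0.49 ± 0.25 per 1000 with joined names (n = 7) and 0.76 ± 0.31 with separated names (n = 4), and within joined names the SB fold change was -0.18 on the log2 scale. All 11 Smarca4 insertions of PB tumours lay in the 22 with joined names, with 0 in the 8 with separated names. PB tails had 0 in both forms, and SB tails had 3 with joined and 0 with separated names. Within joined names, edgeR gave Smarca4 in PB an unadjusted p of 0.0610 (adjusted p = 0.301). The part of this feature in the results was not tested.

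Within a group, insertions were set against the number expected from motif sites, that is, the insertions of the chromosome in each sample times the gene's share of its TTAA or TA sites, with a one-sided Wald test and Bonferroni correction over all genes. In PB tumours Arid1b had 84 insertions against 22.7 expected, a ratio of 3.70 (95% Poisson interval 2.95 to 4.58, adjusted p = 4.36e-29), and Arid2 had 37 against 10.3, a ratio of 3.59 (2.53 to 4.95, adjusted p = 8.74e-11). These 2 of the 8 genes were called, where 4.85% of all genes were (1094 of 22536). The other 6 also lay above 1, from 1.201 for Smarcc1 to 2.41 for Smarca4, and none of them was called. Smarca2 and Arid1a were at 2.14 and 2.17.

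The same test called Arid1b in the other groups as well, tails included, though in SB tumours the call was lost under several alternatives. PB tails had 26 insertions against 6.54 expected, a ratio of 3.97 (2.595 to 5.82, adjusted p = 2.25e-08), with 1.18% of all genes called (267 of 22536). SB tumours had 18 against 5.58, a ratio of 3.22 (1.91 to 5.09, adjusted p = 0.00818), with 0.39% called (93 of 23858). SB tails had 30 against 6.77, a ratio of 4.43 (2.99 to 6.32, adjusted p = 4.32e-12), with 0.189% called (45 of 23858). The 4 ratios of Arid1b had overlapping intervals. Arid2 was not called in PB tails (8 against 3.18, a ratio of 2.52, interval 1.09 to 4.96), SB tumours (1.63) or SB tails (2.07), and its interval in PB tumours overlapped all of these.

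The SB tumour call of Arid1b was lost under the exact Poisson test (adjusted p = 0.549), with at least 10 reads per insertion and with genic sites only. It was also lost when SB tumour 5, SB tumour 6 or SB tumour 7 was left out, with ratios between 2.74 and 3.48 over the 11 such fits. With presence of an insertion per sample in place of the number, 0 of the 8 genes were called in any group. For Arid1b this says nothing, because it was present in 27 of 30 PB tumours, 11 of 12 PB tails and 11 of 11 SB tails, and even presence in every sample of a group would have left its adjusted p at 1 in each of the groups. Arid2 lost its PB tumour call with presence, at 18 of 30 tumours hit, and the highest value it could have reached was not computed. Arid1a had ratios of 4.08 in PB tails, 4.55 in SB tumours and 4.65 in SB tails on 6 insertions each. Of the alternatives tried, only Benjamini-Hochberg adjustment called Arid1a.

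**Figure D2:**
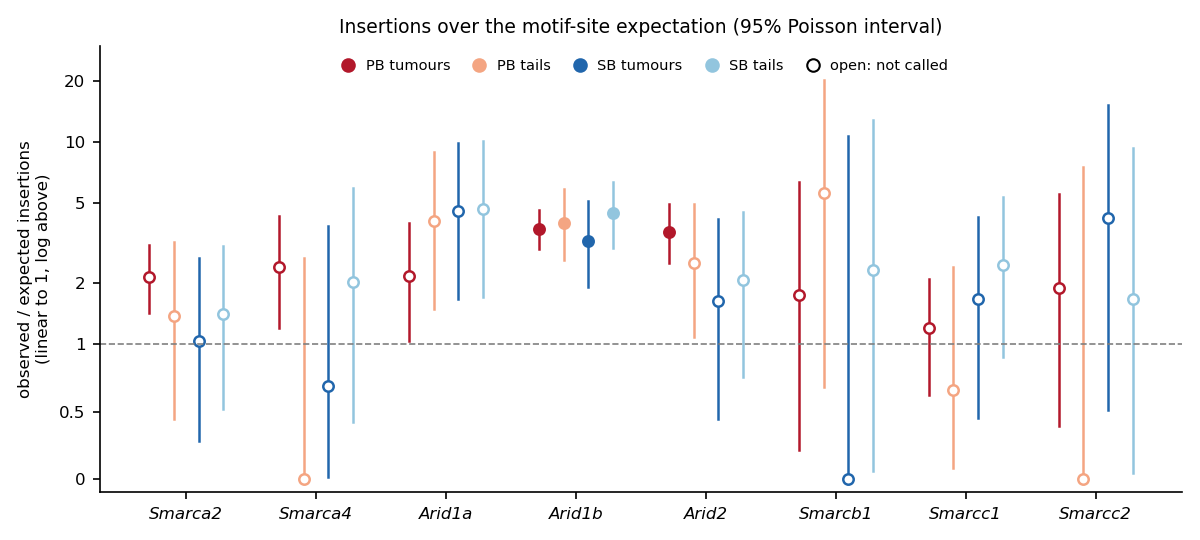
Observed over expected insertions (vertical axis, linear to 1 and logarithmic above) of each gene in the 4 groups, with 95% Poisson intervals for counting error and filled points for called genes. Arid1b is called in all 4 groups, at ratios from 3.22 to 4.43, and Arid2 in PB tumours at 3.59.

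Over the 8 genes, the median ratio was 2.16 in PB tumours, 1.95 in PB tails, 1.65 in SB tumours and 2.19 in SB tails, and the median over all genes tested was 0.726, 0, 0 and 0. Pooled over genes, observed over expected was 2.75, 2.44, 2.18 and 2.93 for the 8 genes and 1.39, 1.303, 1.202 and 1.13 for all genes, in the same order of groups. All 8 lay above the expectation in PB tumours and in SB tails, 6 in SB tumours and 5 in PB tails, where 44.1%, 24.3%, 24.4% and 30.7% of all genes did. A gene without an insertion has a ratio of 0, and only 13327 of 22536 genes had one in PB tumours and 8491 in PB tails. In SB, 7319 of 23858 genes had one in tumours and 7397 in tails. The 8 genes were not matched to others by target size, so the contrasts in median and share do not show an excess particular to them. The expectation counts motif sites only. It holds no term for chromatin or transcription, whose part in the ratios was not tested.

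The remaining subunit genes of the complexes were examined from a list of 21, of which 20 could be tested. In PB tumours 1 of the 20 was called, where 4.85% of all genes were. It was Bcl7b, which encodes a BAF accessory subunit (6 insertions in 5 tumours against 0.461 expected, adjusted p = 3.68e-06). Of the 20, 16 lay above the expectation, where 44.1% of all genes did. Bcl7b had no insertion in the 3 other groups, where 0.146 (PB tails), 0.154 (SB tumours) and 0.206 (SB tails) were expected. Counts of 0 there say nothing about a difference between groups. Ss18, another BAF subunit, had 13 insertions in 11 PB tumours (ratio 2.98), 4 in PB tails, 3 in SB tumours and 1 in SB tails and was not called, and Dpf3, a reader of histone marks in the BAF complex, had 10 in PB tumours (ratio 0.81). In SB tumours Ss18 and the bromodomain subunit Brd7 had 3 each and the accessory subunits Bcl7c and Dpf2 had 2 each, and 0 of the 20 were called there, in PB tails or in SB tails. Their median ratio was 1.90 in PB tumours and 0 elsewhere. By edgeR, 0 of the 2 that passed the filter in PB changed between tumours and tails, with 0 at an unadjusted p under 0.05.

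As a second comparison, 17 other ATPases of the SNF2 family, outside SWI/SNF, were listed, and 14 were tested. In PB tumours 6 were called, the chromodomain helicases Chd2 (60 insertions against 7.38), Chd6, Chd7 and Chd9, the ISWI ATPase Smarca5 (27 against 4.14) and Ep400 of the NuA4 complex. PB tails had 2 called, Chd2 and Smarcad1, and both SB groups had 1, Chd2, at 10 insertions each. In SB, 1.99 were expected in tumours and 2.29 in tails. These calls rest on the Wald test, and the exact Poisson test was not reported for these genes. Their median ratio in PB tumours was 2.42. By edgeR, 0 of the 10 tested in PB and 0 of the 5 tested in SB changed between tumours and tails, with 3 and 0 at an unadjusted p under 0.05, against 19.5% and 9.12% of all genes.

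Insertions lay almost entirely in introns, 326 of 334, and the share of all motif sites of the genes in introns was not counted. The rest were 3 in coding exons, 3 in UTR exons and 2 upstream of the Arid1a transcript with the longest coding sequence, inside the gene span. Arid1b has 20 exons and long introns near its 5′ end. In PB tumours 21 of its 84 insertions were in intron 1, which holds 12.2% of its TTAA sites, and 29 (34.5%) in intron 4, which holds 38.0%. PB tails had 4 of 26 (15.4%) in intron 1 and 14 (53.8%) in intron 4. In SB tumours intron 4 held 7 of 18 (38.9%), and in SB tails 3 of 30, against 35.2% of TA sites, while intron 2 held 10 of 30 in SB tails (33.3%, against 15.9% of sites).

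Most Arid1b insertions lay before the greater part of the coding sequence. The median insertion had 27.7% of the coding bases upstream in PB tumours, PB tails and SB tumours and 26.01% in SB tails, and 80 of 84 insertions in PB tumours had under 50%. Its motif sites lie there too: introns 1 to 4 hold 12.2%, 15.4%, 8.24% and 38.0% of its TTAA sites. The share of sites with under 50% upstream was not counted, so these values are not a preference. Arid2 insertions had a median of 5.18% of the coding bases upstream in PB tumours, 8.39% in PB tails, 49.3% in SB tumours and 26.5% in SB tails, on 4 insertions in SB tumours and 6 in SB tails. In PB tumours, intron 3 held 20 of 37 insertions (54.1%) and 55.6% of the TTAA sites. All 28 Arid1a insertions had under 50% upstream, in a gene whose introns 1 and 4 hold 46.6% and 31.7% of its TTAA sites.

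In PB tumours, Smarca2 insertions lay further along the gene, and the median insertion had 82.2% of the coding bases upstream. This median was 74.0% in SB tumours (4 insertions), 36.3% in PB tails (5 insertions) and 22.5% in SB tails (6 insertions). Of the 28 insertions in PB tumours, 13 (46.4%) were in introns 27 and 28, near its 3′ end. These introns hold 28.6% of its TTAA sites and were picked from these same positions. In PB tails 0 of 5 were in these introns, in SB tumours 2 of 4 and in SB tails 0 of 6. Smarca4 had 4 of 11 insertions in PB tumours in intron 1 (36.4%, against 28.01% of sites) and 3 in intron 30 (27.3%, against 15.4%). Both Smarcb1 insertions in PB tumours and both in PB tails were in intron 1. All of these are small counts from few animals, and they were not tested.

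**Figure D3:**
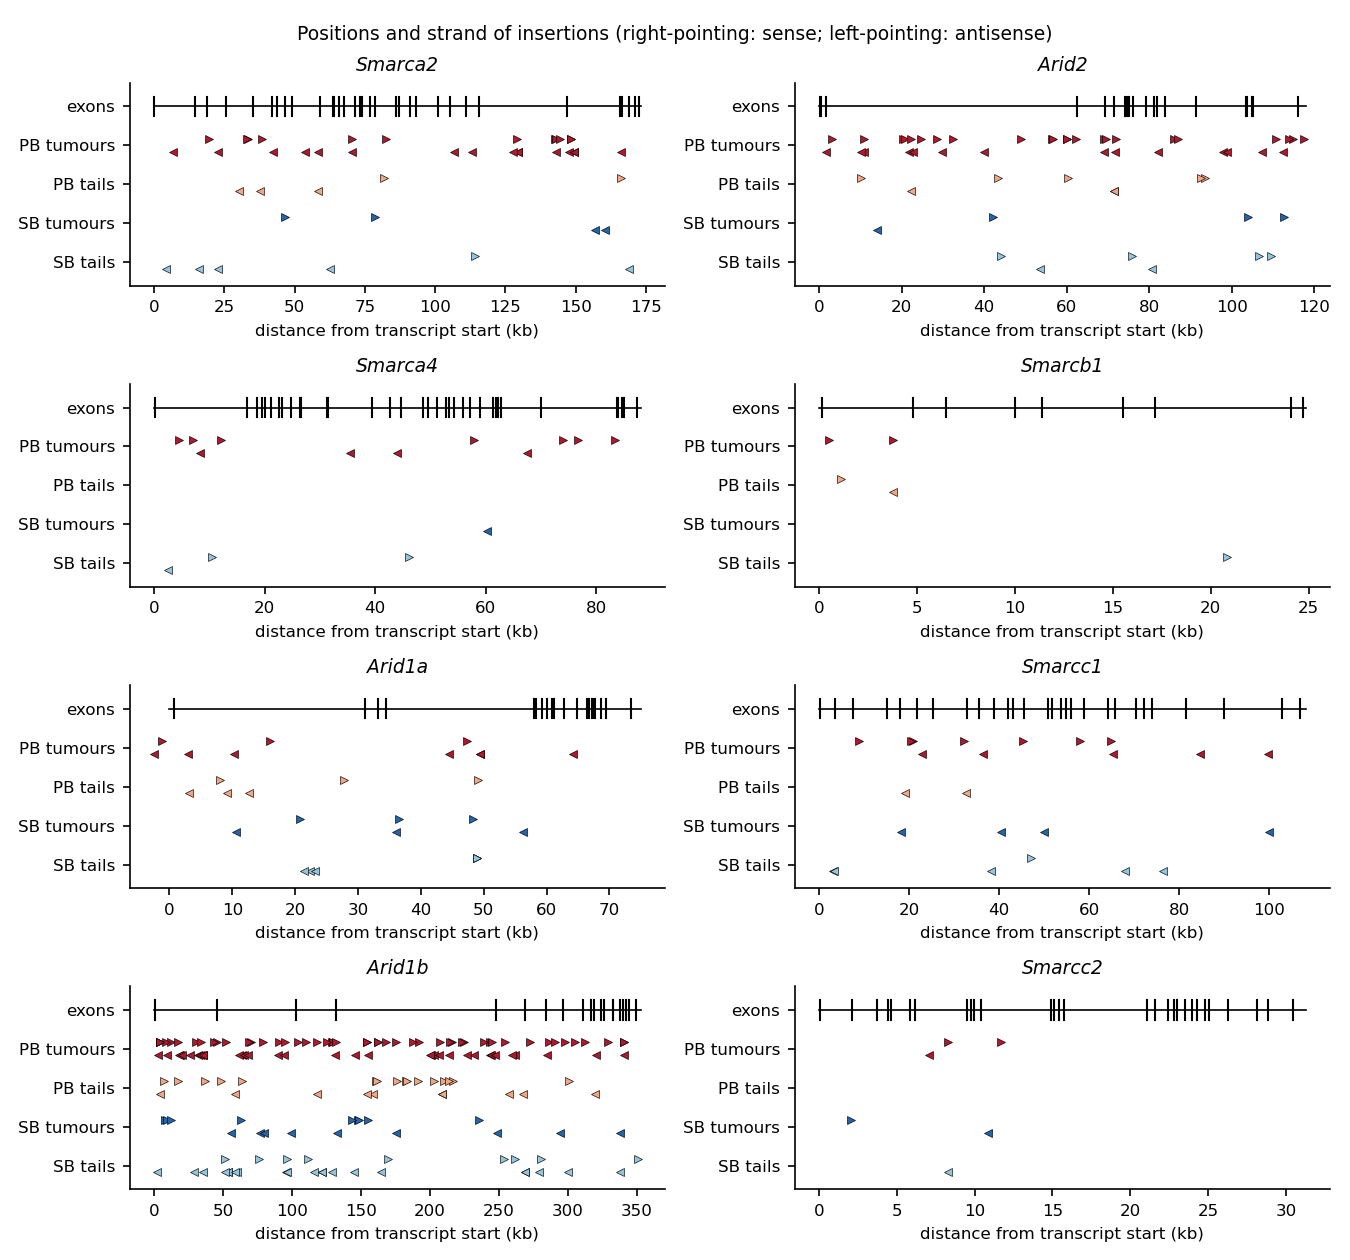
Position of each insertion as distance from the transcript start in kb (horizontal axes), in rows by group, with right-pointing triangles for sense and left-pointing triangles for antisense insertions and exons as ticks above. Insertions spread over the length of Arid1b and Arid2, and 13 of the 28 Smarca2 insertions in PB tumours lie in introns 27 and 28.

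The strand of an insertion was read as the table gives it and set against the strand of the gene. Over the 8 genes, 105 of 187 insertions in PB tumours were sense (56.1%, 95% Clopper-Pearson interval 48.7 to 63.4%) and 27 of 49 in PB tails (55.1%, 40.2 to 69.3%), against 48.4% and 49.2% of all insertions in genes. In SB tumours 18 of 39 were sense (46.2%, 30.1 to 62.8%) and in SB tails 21 of 59 (35.6%, 23.6 to 49.1%), against 45.9% and 47.4%. The interval excluded the share over all genes in PB tumours only, and with at least 10 reads per insertion the PB tumour share was 52.1% (39.9 to 64.1%), the PB tail share 66.7% (48.2 to 82.04%), the SB tumour share 43.5% (23.2 to 65.5%) and the SB tail share 41.03% (25.6 to 57.9%). Arid1b had 49 sense and 35 antisense insertions in PB tumours and 9 sense and 21 antisense in SB tails (30.0%, 14.7 to 49.4%). Arid2 had 23 sense and 14 antisense and Smarca2 12 and 16 in PB tumours. Intervals cover counting error only, and insertions of 1 mouse share their source. At no position did a sample have insertions on both strands.

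Reads give a rough measure of how large a share of the tissue carries an insertion, within the limits of PCR. None of the 8 genes held a dominant insertion in a tumour. The highest share of a sample's reads was at the Arid1b intron 4 site of PB tumour 19 shown above, with 656 reads, 0.794% of the reads of that sample and rank 16 of 3787. The next was in Arid2 intron 3 of PB tumour 17, with 667 reads, 0.497% of the sample and rank 58 of 5673. In SB tumours the highest share, in Arid1b intron 2 of SB tumour 7, had 284 reads, 0.369% and rank 49 of 760. Of the 334 insertions, 1 was among the 10 most covered of its sample, and it was in a tail: the Arid1b site of SB tail 3, with 100 reads and rank 7. The 8 genes held 0.111% of all insertions, and each of the 64 samples has 10 such places. A count this low therefore says nothing particular about these genes.

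Expressed as a percentile of reads within the sample, where 50 is the middle insertion, the median over the 8 genes was 51.4 in PB tumours, 40.9 in PB tails, 40 in SB tumours and 45.5 in SB tails, against 51.2, 49.9, 50.2 and 50.03 over all insertions in genes. Arid1b insertions had medians of 46.5 in PB tumours, 42.2 in PB tails, 40.8 in SB tumours and 34.2 in SB tails. Arid2 insertions had a median of 75.3 over the 37 in PB tumours and 39.1 over the 8 in PB tails, and of 59.5 over the 4 in SB tumours and 65.9 over the 6 in SB tails. Medians above that of Arid2 in PB tumours were those of Smarcc2 in PB tumours (79.1, 3 insertions) and Smarcc1 in SB tumours (78.5, 4 insertions). Taken per animal, the median Arid2 insertion was above 50 in 11 of 18 PB tumours (24.6 to 95.7, median 69.3) and in 1 of 7 PB tails (5.26 to 60.6, median 37.2), and the ranges overlapped. Smarca2 was above 50 in 10 of 16 PB tumours and 1 of 4 PB tails. Low read counts were common, with a median of 7 reads per insertion of the 8 genes in PB tumours and 21 in PB tails, and 71 of 187 and 33 of 49 insertions had at least 10 reads.

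**Figure D4:**
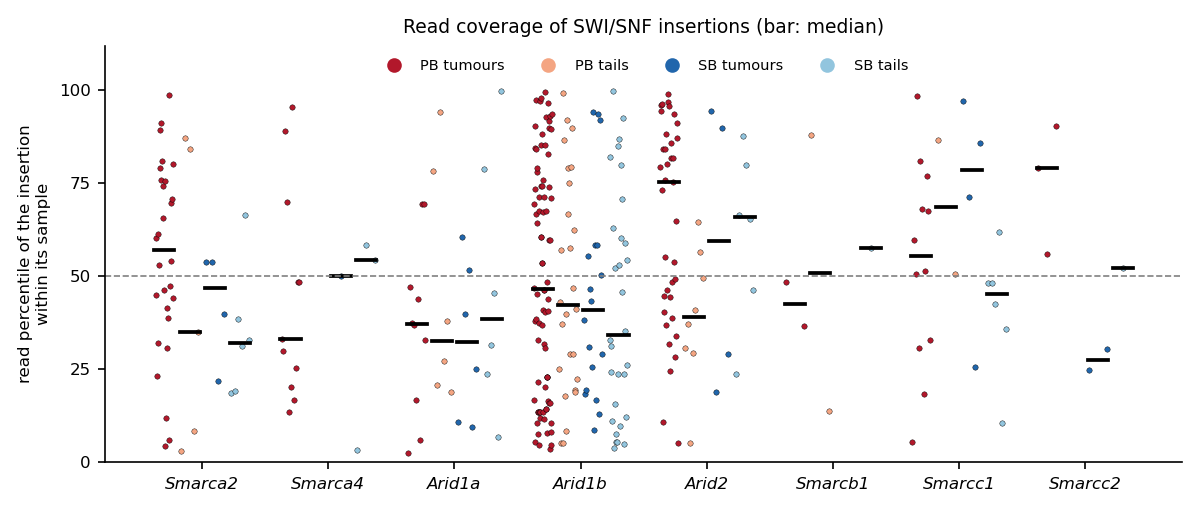
Read percentile of each insertion within its sample (vertical axis, 50 is the middle insertion) by gene and group, with 1 point per insertion and the median as a bar. Points of most genes spread over the whole range, and Arid2 in PB tumours has its median at 75.3.

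Some exact positions recurred between animals. Of the 319 positions, 14 were hit in more than 1 sample, 5 of them on the same strand each time and 9 on opposite strands. In all, 18 of 187 insertions in PB tumours (9.63%) and 8 of 49 in PB tails (16.3%) were at a position that another PB sample shared, where 8.98% and 8.69% of all PB insertions were. In SB tails 3 of 59 were shared (5.08%, against 1.18% of all insertions) and in SB tumours 0 of 39 (against 1.61%). The 5 sites that recurred on 1 strand are shown so that the repeated positions can be compared, and what brought them about was not tested.
Arid1a intron 4, SB tails 8, 10 and 11, chr4:133705098-133705127: accaagtgttttacTAgatatgggaagaca
Arid1a intron 4, PB tumours 4 and 27, chr4:133704628-133704657: aacctcagtatctTTAAaccaggacaacaa
Arid1b intron 17, PB tumours 2 and 14, chr17:5335763-5335792: actaattttttctTTAAaatgataaattaa
Smarca2 intron 9, PB tail 3 and PB tumour 30, chr19:26663419-26663448: ggcactgtaatatTTAAacagtagtaggtg
Smarca2 intron 28, PB tumours 17 and 18, chr19:26753350-26753379: aagcacacttcttTTAAatactgtcaagtg

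The Arid1a site of the SB tails made up 3 of the 6 Arid1a insertions in that group, with 20, 75 and 5 reads, and all 3 tails belonged to the 4 SB tails with separated names. At the other 4 sites the reads were 12 and 17, 25 and 11, 48 and 20, and 8 and 8, in the order of the samples given. Counted as 1, the SB tail site would leave Arid1a with 4 distinct positions there.

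Across the 64 samples, the genes on other chromosomes whose insertions per 1000 followed those of Arid1b most closely were Sema3a (Pearson r = 0.66), 4931429P17Rik (0.62) and Sdk2 (0.61), among genes with at least 10 insertions. Without SB tumour 7, the sample with the highest Arid1b rate and few insertions, these fell to 0.53, 0.35 and 0.35. The samples share the library's total as denominator, and the values are a description.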

How the data were processed

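Insertion sites were analysed in tumours of 30 PB and 11 SB mice and in tails of 12 PB and 11 SB mice. The authors amplified junctions by splinkerette PCR (QiSeq) and deposited raw read counts per insertion, on mm10. Aligner, caller and read filters are not given in the sources used here. A normalised coverage column (1 column) was not used. Reads are PCR products without molecular identifiers, so intervals and floors cover counting error only.

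Positions were moved to the nearest TTAA or TA within 5 bp, and each counted once per sample. Sex chromosomes and the donor chromosome 14, which had the most insertions per Mb, were left out. Genes were RefSeq spans of GRCm38. The tests were edgeR 4.0.16 (library size: insertions of the sample), with DESeq2 1.42.0 as an alternative, and a one-sided Wald test against motif sites, which called a gene at a Bonferroni-adjusted p under 0.05 with at least 3 samples and 5% of samples hit. SE was the fold change over the root of F. The edgeR p-values measure the spread between mice, and the Wald p-values cover Poisson counting error only. Both tests were run on simulated counts with changes of known size. For the Wald test these counts were Poisson draws from its own expectation, without extra spread between mice. That run therefore says nothing about such spread or about insertion bias. The 8 genes are all named, of other subunits those called or with the most tumour insertions (Dpf2, tied at 2 in SB tumours, was added after its value was seen), and of other ATPases those called. The genes and lists were chosen with earlier results of these data known. Groups share no replicate.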

Additional observations from a re-analysis of the deposited data

How the results depend on the processing

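The number of the 8 genes called between tumours and tails stayed at 0 in PB, in SB and in the interaction under TMM factors, DESeq2, no filter on genes, presence per sample, at least 10 reads, the table's gene annotation and the donor chromosome kept, and also, for PB and SB, within sample name forms and with each sample left out (0 to 0). It moved with reads summed per gene, to 3 in PB (Smarca4, Smarcb1 and Smarcc2) and 1 in SB (Smarcb1), where edgeR called 5001 and 3928 genes in all. Over all genes, the PB count of 142 became 66 by DESeq2, 70 without a filter, 0 with presence, 28 in joined and 30 in separated names, and the SB count of 10 became 2 by DESeq2, 0 with presence and 28 with the donor chromosome kept. Above the motif expectation, Benjamini-Hochberg adjustment gave 4 in PB tumours, 2 in PB tails, 2 in SB tumours and 2 in SB tails. Presence per sample gave 0 in each group, where Arid1b could not have been called and Arid2 lost its call in PB tumours. In SB tumours the exact Poisson test, at least 10 reads and genic sites only also gave 0. With each sample left out, the count stayed at 2 in PB tumours and 1 in PB tails and in SB tails, and ranged from 0 to 1 in SB tumours. Over all genes, the counts of 1094, 267, 93 and 45 in tumours and tails of PB and in tumours and tails of SB became 632, 81, 33 and 13 by the exact Poisson test, 2755, 822, 303 and 164 under Benjamini-Hochberg adjustment, 485, 90, 17 and 9 with presence and 636, 147, 58 and 25 with genic sites only, and 469 in PB tumours with at least 10 reads. The cause was not tested. Of the log2 fold changes, none of which was called, Arid1b in PB turned to 0.25 (TMM), 0.0425 (donor chromosome kept) and 0.90 (joined names), Arid2 in PB to -0.29 and in the interaction to 0.45 (presence), Smarca2 in PB to -0.29 (reads summed), Arid1a in SB to -0.0143 (TMM) and -0.38 (reads summed), Smarcc1 in SB to 0.00816 (donor chromosome kept) and 0.56 (reads summed), and Arid2 in SB to 0.00659 (donor chromosome kept). With single samples left out, Arid1b in PB ranged from -0.21 to 0.23 and Arid1a in SB from -0.0864 to 0.55. The share of sense insertions over the 334 was 51.2% both in all and among the 166 with at least 10 reads, though the share was lower in the tumours and higher in the tails of both systems with at least 10 reads. No paired analysis was possible because tumours and tails came from different mice and their names give no shared replicate. Depth limits Smarcb1 and Smarcc2 most, since fewer than 2 insertions were expected in each group.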
